A study of Mus musculus with 9 samples.

Results

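The S100 proteins and annexins described here are 10 genes expressed by mouse alveolar macrophages: S100a10, S100a1, S100a4, S100a6, S100a11, Anxa1, Anxa2, Anxa3, Anxa4 and Anxa5. They were listed by symbol with earlier results of the same comparison known, so their differences between the groups are given as a description and are not tested. All 10 were present among the 27179 genes counted, and all 10 passed the filter on low counts, as did 12840 genes in all. Bulk polyA RNA was sequenced from alveolar macrophages, the phagocytes that live in the air spaces of the lung, sorted from C57BL/6 mice aged 1 week. The 5 libraries of the Suz12 cKO group carry a conditional deletion (cKO) in Suz12, which encodes part of the core of the Polycomb repressive complex PRC2, and the 4 libraries of the other group are wild type. Replicates are biological ones, per the series text. The Cre driver, the deleted exons, the sort gate, the sex of the mice and any pooling of animals were not given in the sources used here.

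S100 proteins are small calcium sensors built from EF-hand motifs. Most bind calcium, change shape and then grip a partner protein, and S100a10 is the exception that holds its active shape without calcium. Annexins bind acidic phospholipids of membranes when calcium is present, and their variable N-terminal tails carry the docking sites for S100 proteins. The best known pairs are S100a10 with Anxa2, which at the cell surface gathers plasminogen, and S100a11 with Anxa1. Anxa1 is also released from myeloid cells and dampens inflammation through formyl peptide receptors.

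The targeted gene was checked first. Suz12 stood at 11.9, 14.7, 21.8, 13.1 and 18.5 CPM (counts per 1e6 of the scaled library) in Suz12 cKO libraries 1 to 5, against 67.5, 76.6, 51.7 and 70.7 CPM in wild type libraries 1 to 4, and fell by 2.06 on the log2 scale (SE 0.18, adjusted p 1.69e-05, edgeR quasi-likelihood test). Total counts ranged between 18.6 and 45.6 M (M, 1e6) in the cKO libraries and between 13.8 and 25.3 M in the wild type libraries. Across all tested genes, 1152 were higher and 1409 lower in cKO libraries at an adjusted p under 0.05, and with library size as the only scaling the split was 1960 higher and 1013 lower. The summed level of 17 alveolar macrophage markers was between 30383 and 56431 CPM in cKO libraries and between 39071 and 80593 CPM in wild type libraries. Chil3 alone gave 5453 to 32245 CPM of this in cKO and 13734 to 50835 CPM in wild type. Of these 17 markers 2 rose and 5 fell, but 3 rose and 1 fell with the correction for gene length described below. Siglecf, a defining one, was between 372 and 502 CPM in cKO and between 411 and 493 CPM in wild type. The summed level of 13 epithelial markers was between 499 and 919 CPM in cKO and between 926 and 1064 CPM in wild type, of which Krt19 gave 378 to 658 CPM in cKO and 703 to 816 CPM in wild type. Hopx fell, as did Krt19 except with the length correction, and Epcam averaged 28.7 CPM in cKO and 10.2 CPM in wild type (adjusted p 0.228). The sum of 9 monocyte markers was between 7322 and 33974 CPM in cKO and between 15449 and 53478 CPM in wild type. The sums of fibroblast markers (5.55 to 11.3 CPM in cKO, 1.75 to 6.65 CPM in wild type), of T or B lymphocyte markers (6.41 to 25.1 CPM in cKO, 5.45 to 29 CPM in wild type) and of mast cell or basophil markers (at most 0.808 CPM in cKO, at most 0.561 CPM in wild type) were low. Endothelial markers summed to between 86.9 and 150.5 CPM in cKO and between 126 and 176 CPM in wild type, nearly all of it Vwf (78.1 to 144 CPM in cKO, 124 to 171 CPM in wild type). The median log2 fold change of the 6 tested endothelial markers had the other sign, 1.10, and Esam rose, at under 1 CPM in every library. Chil3, which is on both the alveolar macrophage and the monocyte list, made up 32245 CPM of the highest monocyte sum in cKO and 50835 CPM of the highest in wild type. Both highest sums were in a library 3. For several genes below, cKO library 3 and wild type library 3 stood apart from their groups, and results that rest on them are given with and without them.

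S100a10 showed the largest difference of the 10 genes. It was lower in every cKO library than in any wild type library. S100a10 (Entrez Gene 20194, chromosome 3, positions 93555117 to 93564645 of GRCm38) had 279, 279, 258, 317 and 254 CPM in the cKO libraries, against 636, 539, 791 and 726 CPM in the wild type libraries. The cKO libraries lay close together and the wild type libraries were more spread, with a clear gap between the groups. S100a10 averaged 277 ± 25.1 CPM in cKO (SD, n = 5) and 673 ± 110 CPM in wild type (SD, n = 4), a ratio of 0.412 and a log2 fold change of -1.28 (SE 0.11). Leaving out any 1 library moved that log2 fold change no further than -1.37 and -1.18. In bulk RNA, fewer cells that carry a transcript and less of it per cell cannot be told apart.

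S100a1, a sensor best known from heart and skeletal muscle, followed in the same direction. It had 176, 157, 193, 177 and 155 CPM in the cKO libraries, against 260.0, 215, 340.5 and 304 CPM in the wild type libraries, and the groups did not overlap. Its log2 fold change was -0.70 (SE 0.12). S100a1 lies at chromosome 3, positions 90511034 to 90514330, and its annotated span shares 98 bases with the neighbouring S100a13. Reads in the shared stretch cannot be assigned to a gene without the strand setting of the counting, which was not given.

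S100a11, the partner of Anxa1, overlapped widely between the groups. It had 162, 129.8, 211, 143 and 123 CPM in cKO libraries, against 161, 138, 171 and 183 CPM in wild type libraries. The highest and the lowest of the 9 values were both in cKO libraries. The log2 fold change was -0.08 (SE 0.14), -0.22 without cKO library 3, and 0.03 when library size was the only scaling. A processed copy in the genome, S100a11-ps, was counted at no more than 0.23 CPM in any library.

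S100a4 and S100a6, which sit next to each other on chromosome 3 apart from the little expressed S100a5 between them, differed more between libraries of 1 group than between the groups. S100a4, which binds non-muscle myosin and is linked to cell motility, had 3.87, 11.8, 0.961, 10.7 and 8.15 CPM in cKO libraries, against 6.3, 6.69, 22.1 and 7.36 CPM in wild type libraries. S100a6, a calcium sensor named calcyclin for its rise in cycling cells, had 14.3, 52.5, 8.68, 41.4 and 32.5 CPM in cKO libraries, against 25.9, 17.1, 39.1 and 16.5 CPM in wild type libraries. The groups overlapped for both genes, and within the cKO group the highest library exceeded the lowest by 12.3 times for S100a4 and 6.05 times for S100a6. Their direction turned on single libraries. The log2 fold change of S100a4 was -0.57 (SE 0.65), -0.28 without cKO library 3, and 0.07 without wild type library 3. That of S100a6 was 0.28 (SE 0.55), -0.02 without cKO library 2, 0.53 without cKO library 3 and 0.60 without wild type library 3.

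Among the annexins, Anxa1 was lower in all cKO libraries. Anxa1 (Entrez Gene 16952, chromosome 19, positions 20373434 to 20390671) had 829, 735, 653, 877 and 787 CPM in cKO, against 1151, 921, 1113 and 1173 CPM in wild type. The highest cKO value stayed below the lowest wild type value, though the gap was narrow. The means were 776 ± 86.4 CPM in cKO (SD, n = 5) and 1090 ± 115 CPM in wild type (SD, n = 4), with a log2 fold change of -0.49 (SE 0.10) and a range of -0.56 to -0.43 over the fits that left out 1 library.

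Anxa2, the most abundant of the 10 genes, differed little. Anxa2 (chromosome 9, positions 69453683 to 69491792) had 2109, 1860.3, 1679, 1933 and 1775 CPM in cKO, against 2113, 1930.0, 1942 and 2011 CPM in wild type. All wild type values but 1 lay inside the cKO range. The log2 fold change was -0.10 (SE 0.08), and 0.02 with library size as the only scaling. Anxa5, the annexin that binds exposed phosphatidylserine, had 627, 589.9, 569, 591 and 552 CPM in cKO, against 657, 593, 595 and 666 CPM in wild type. Its groups overlapped by a little, and its log2 fold change was also -0.10 (SE 0.07), and 0.02 with library size as the only scaling.

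Anxa4, a membrane-ordering annexin abundant in epithelia, had 299, 352, 230.4, 406 and 438 CPM in cKO, against 317, 339.7, 396 and 371 CPM in wild type. Anxa3, an annexin of phagocyte granules, had 66.4, 61.2, 37.2, 69 and 65.1 CPM in cKO, against 76, 45.9, 68.6 and 65.8 CPM in wild type. Both genes were lowest in cKO library 3 and overlapped widely between the groups. The log2 fold change of Anxa4 was -0.05 (SE 0.15), 0.08 without that library and 0.02 without wild type library 3. That of Anxa3 was -0.10 (SE 0.18), 0.04 without cKO library 3 and 0.00 without wild type library 1.

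**Figure D1:**
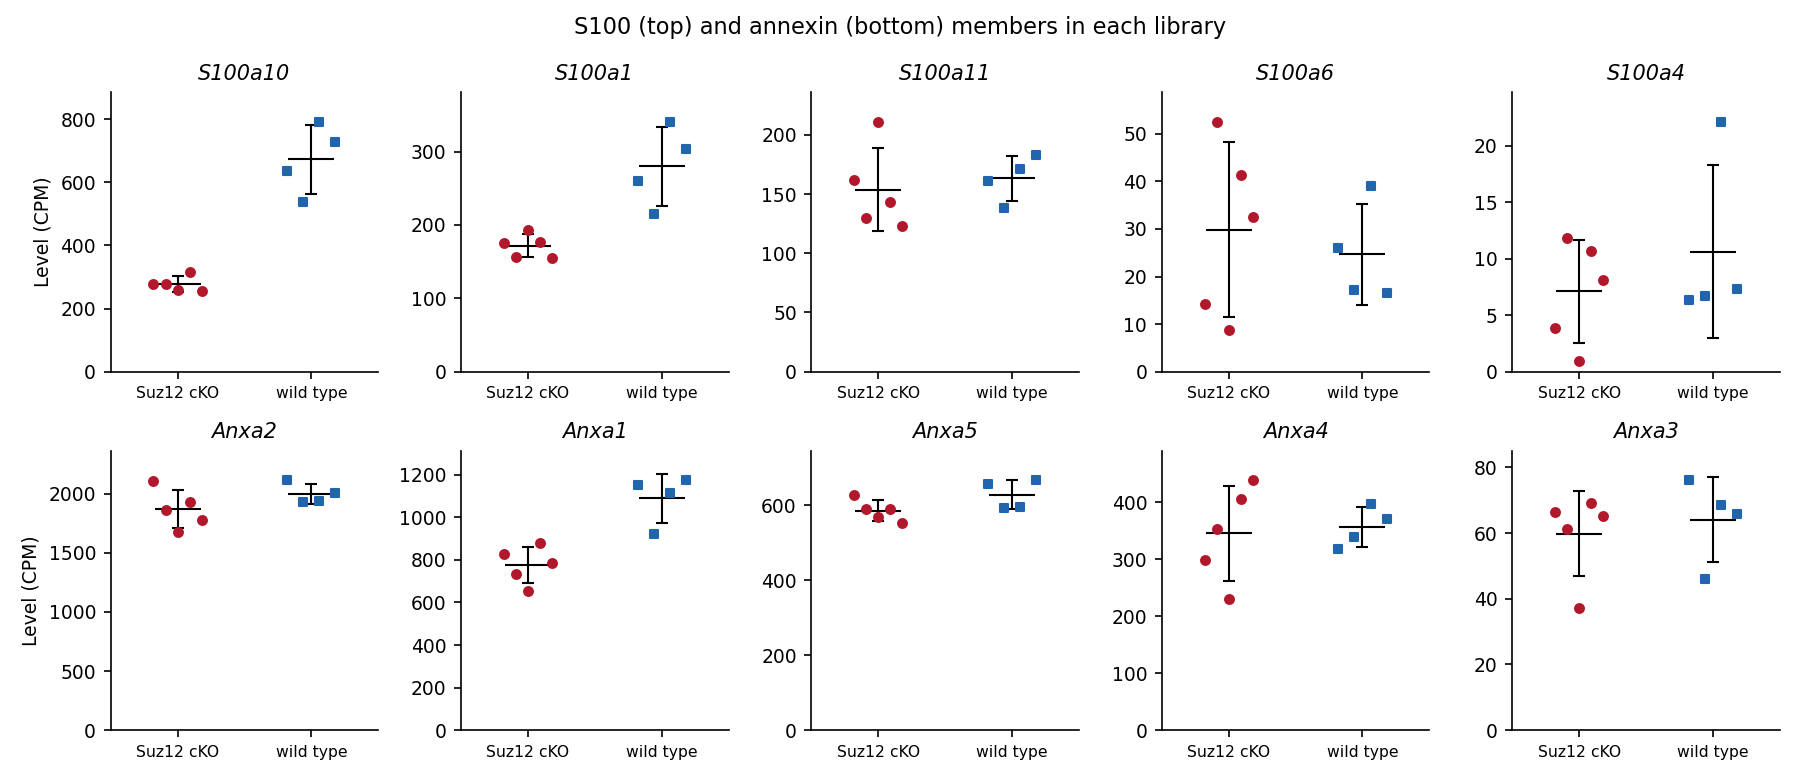
Level in CPM (y axis, from 0) of the 5 S100 genes (top) and 5 annexin genes (bottom) in Suz12 cKO libraries (circles, n = 5) and wild type libraries (squares, n = 4). Long bars are means and whiskers are SD, and the groups are apart for S100a10, S100a1 and Anxa1 and overlap for the other 7 genes.

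Taking the 10 genes as a list, 9 had a negative log2 fold change and 3 had groups that did not overlap. The groups did not overlap for 20.8% of all tested genes, and since the genes were chosen on this comparison nothing is read from their count. Their median log2 fold change was -0.10, beside 0.04 over all tested genes. With library size as the only scaling the median over all tested genes was 0.15, and Anxa2, Anxa3, Anxa4, Anxa5 and S100a11 then had a positive log2 fold change. The 5 S100 genes summed to 639.7 ± 44.7 CPM in cKO (SD, n = 5) and 1151 ± 193 CPM in wild type (SD, n = 4). Mean levels in cKO and wild type were 277 and 673 CPM for S100a10 and 172 and 279.9 CPM for S100a1. They were 154 and 163 CPM for S100a11, 29.9 and 24.6 CPM for S100a6, and 7.11 and 10.6 CPM for S100a4. The 5 annexins summed to 3638 ± 302 CPM in cKO (SD, n = 5) and 4137 ± 223 CPM in wild type (SD, n = 4).

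The order of the levels differed between the groups in the places of S100a10 and S100a1, among others. Levels of different genes are set beside each other per kilobase of the deposited gene length, as mean ± SD over 5 cKO and 4 wild type libraries. Anxa2 was at the top in both groups, at 1362 ± 119 CPM per kilobase in cKO and 1455 ± 61.2 in wild type. In cKO libraries, S100a10 held rank 3 at 427 ± 38.6 CPM per kilobase, below Anxa1 at 556 ± 61.9, with ranges that overlapped. In wild type libraries, S100a10 held rank 2 at 1035 ± 169 CPM per kilobase, above Anxa1 at 781 ± 82.5, again with overlapping ranges. S100a1 held rank 6 in cKO at 279 ± 25.6 CPM per kilobase and rank 4 in wild type at 455 ± 88.3. Anxa5, at 339.7 ± 16.4 in cKO and 364 ± 22.6 in wild type, lay above it in every cKO library and overlapped with it in wild type. S100a11 was at 305 ± 70.2 in cKO and 324 ± 37.7 in wild type, and overlapped with Anxa5 in both groups. Anxa4 held rank 7 in both groups, at 172 ± 41.5 in cKO and 178 ± 17.4 in wild type. S100a6, Anxa3 and S100a4 were the lowest, and neighbours among them overlapped in each group.

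The partners S100a10 and Anxa2 thus stood in another ratio in the groups. On the per-kilobase scale, S100a10 over Anxa2 was 0.279, 0.317, 0.324, 0.347 and 0.303 in cKO libraries, against 0.636, 0.59, 0.861 and 0.764 in wild type libraries. The mean ratio was 0.314 ± 0.0251 in cKO (SD, n = 5) and 0.713 ± 0.123 in wild type (SD, n = 4), without overlap. Both genes of this ratio are among those chosen, and a ratio of transcripts is not a ratio of proteins. Division by length also leaves in place the trend with gene length described below. Genes of similar length had a median log2 fold change of -0.43 for S100a10 and -0.13 for Anxa2. With the correction for length, S100a10 stood at -0.85 and Anxa2 at 0.03. The ratio of S100a11 to Anxa1 was 0.561 ± 0.191 in cKO (SD, n = 5) and 0.414 ± 0.0194 in wild type (SD, n = 4), and its highest value, 0.894, was in cKO library 3.

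**Figure D2:**
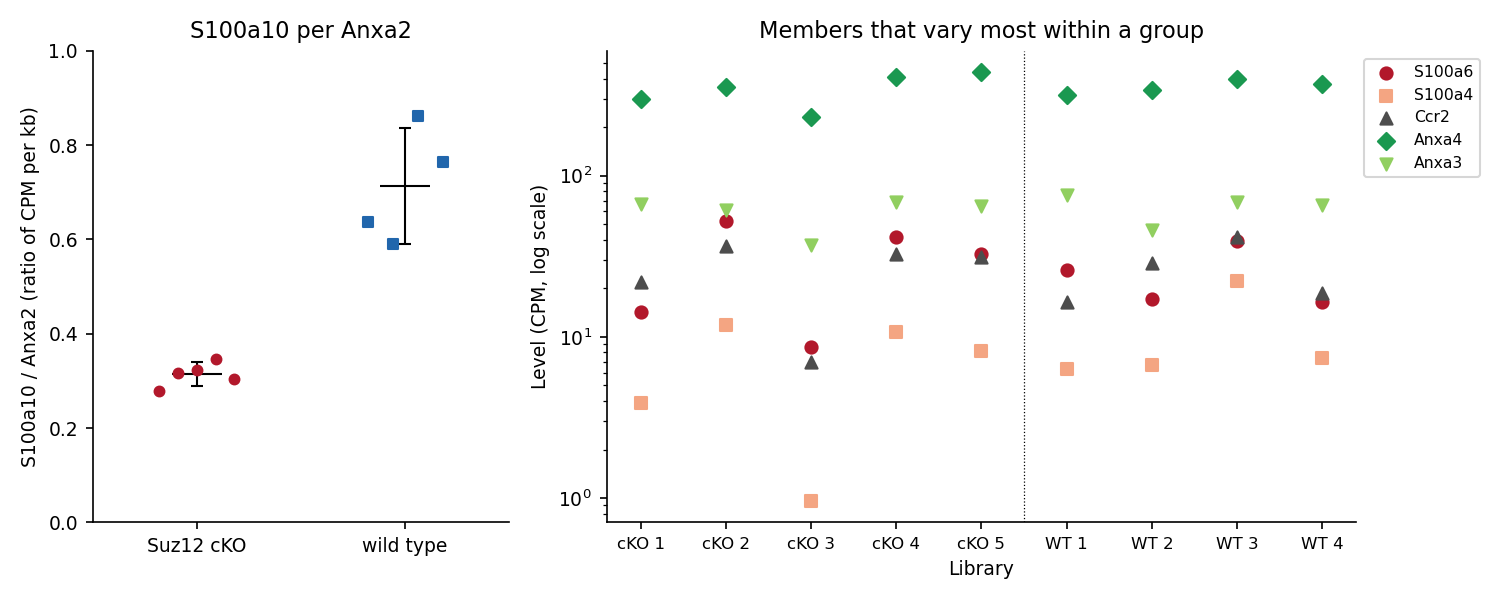
Left, S100a10 divided by Anxa2 in CPM per kilobase for each Suz12 cKO (circles, n = 5) and wild type (squares, n = 4) library with mean and SD; the cKO values lie between 0.279 and 0.347. Right, CPM on a log scale of S100a6, S100a4, Anxa4, Anxa3 and the chemokine receptor gene Ccr2 in each library, with cKO library 3 lowest for all 5 genes within the cKO group.

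S100 genes are short, and short genes as a whole were lower in cKO libraries. The 10% of tested genes with the shortest length, 62 to 970 bases, had a median log2 fold change of -0.42, and the longest 10%, 6045 to 83437 bases, had a median of 0.14. Each of the 10 genes was therefore set beside all tested genes within 20% of its length, without family members. S100a10, at 650 bases, had 498 such genes with a median of -0.43, and 13 of them (2.61%) had a lower log2 fold change than S100a10. Of these genes 41% were called lower and 1.41% higher, where 1409 of all 12840 tested genes were called lower and 1152 higher. Restricting them to the 262 whose mean log2 CPM was 4 or more, a limit chosen after seeing the data, gave a median of -0.57 and 0 genes below S100a10.

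The same neighbours gave a different picture for the other S100 genes. S100a1, at 615 bases, stood at -0.70 beside a median of -0.43 in 471 genes, of which 27.8% were lower. S100a4, at 499 bases and -0.57, was close to the median of -0.52 of its neighbours. S100a11 (504 bases, -0.08) and S100a6 (719 bases, 0.28) lay above theirs, at -0.51 and -0.39, and 79.3% of the neighbours of S100a11 were below it. The annexins are longer. Anxa1, at 1395 bases, stood at -0.49 beside a median of -0.13 in 1614 genes, of which 19% were lower, and Anxa2, Anxa3, Anxa4 and Anxa5 each lay within 0.06 of the median of their neighbours.

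In a fit with a correction for length, S100a10 again had the lowest value of the 10 genes. The correction took a smooth curve of each library's log2 CPM deviations against log2 length and entered it as an offset. The log2 fold change was then -0.85 (SE 0.08) for S100a10, -0.37 for Anxa1, -0.26 for S100a1, -0.02 for S100a4, 0.40 for S100a11 and 0.71 for S100a6. S100a11 and Anxa2, which stood at 0.03, had the other sign in this fit. The part that RNA quality or library preparation has in the trend with length was not tested.

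**Figure D3:**
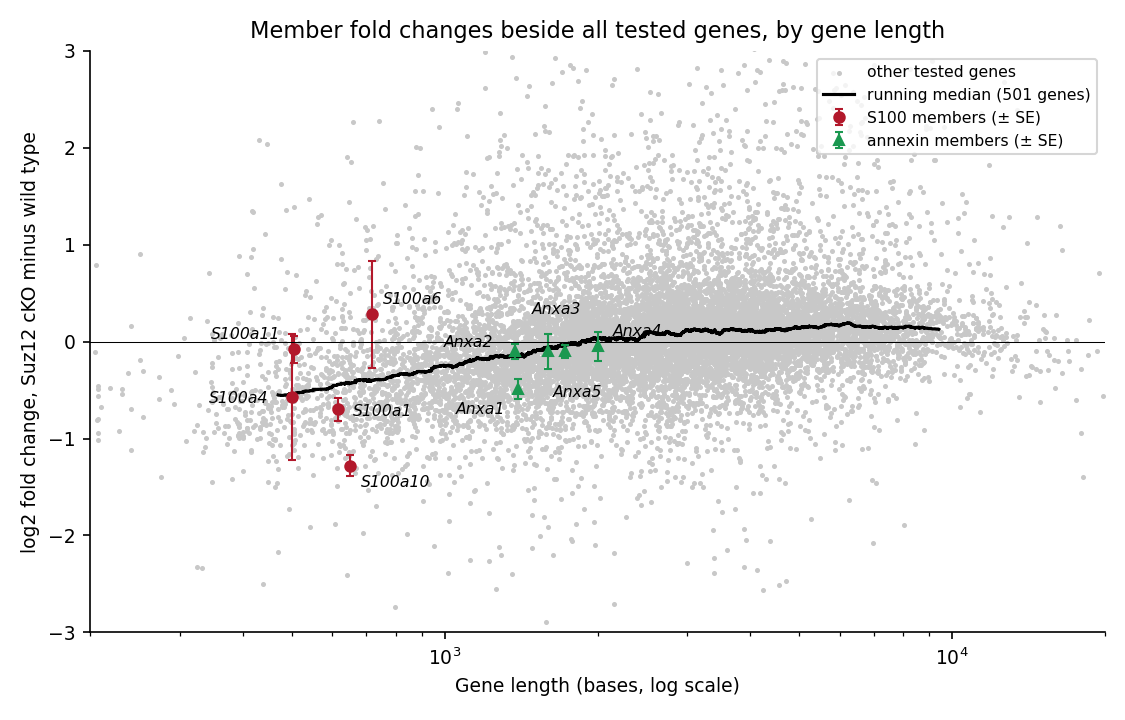
Log2 fold change, Suz12 cKO minus wild type (y axis), against the deposited gene length in bases (x axis, log scale) for tested genes (grey; genes beyond the axes are not drawn), with a running median over genes ordered by length (line). The 5 S100 genes (circles) and 5 annexins (triangles) carry SE bars, and S100a10 at -1.28 and Anxa1 at -0.49 lie below the line while S100a6 and S100a11 lie above it.

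The spread between libraries of the same group separated the 10 genes in another way. Within groups, the SD of log2 CPM was 1.24 for S100a4 and 0.91 for S100a6, beside medians of 0.39 and 0.22 over genes of like level (mean log2 CPM within 0.5). Of those genes, 98.5% and 99.5% had a smaller SD. Anxa3 (0.35) and Anxa4 (0.30) were also wide, whereas Anxa5 (0.08) and Anxa2 (0.10) were narrow, with 10.4% and 28.6% of like genes below them. The cKO libraries ran in the same order, 3, 1, 5, 4 and 2 with the lowest named first, for S100a4, S100a6 and Ccr2, a receptor gene of classical monocytes. Ccr2 had 22, 36.8, 6.97, 32.7 and 31.3 CPM in cKO libraries, against 16.5, 28.9, 41.9 and 18.7 CPM in wild type libraries. The integrin gene Itgax, which encodes CD11c, had 1734, 2556, 641, 1789 and 1927 CPM in cKO libraries, against 1263, 1287, 1469 and 1408 CPM in wild type libraries. Its log2 fold change was 0.35 (adjusted p 0.525), and 0.57 (adjusted p 0.00252) without cKO library 3. All 4 genes were lowest among the cKO libraries in library 3 and highest among the wild type libraries in library 3. So were Cdh1, Epcam and Sftpc of the epithelial list, whereas Hopx of that list was lowest in cKO library 1 (20.5 CPM). Ccr2, Itgax and these epithelial markers were picked after their values were seen, and other genes of the monocyte list ran otherwise. Chil3 (32245 CPM) and Ly6c2 (1.36 CPM) were highest among the cKO libraries in library 3, and in wild type library 3 Cx3cr1 was at 0 CPM and Ly6c2 at 0.0795 CPM. The part of cell composition in this was not tested.

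Genes that resembled S100a10 and Anxa2 most were looked up by the root mean square difference of centred log2 CPM over the 9 libraries, among 10817 genes. For S100a10 these were the chemokine gene Ccl6 (0.062), Rps27l (0.0678), which encodes a ribosomal protein relative, and Snrpe (0.0907), which encodes a spliceosome protein. Ccl6 averaged 4345 ± 215 CPM in cKO (SD, n = 5) and 10325 ± 1612 CPM in wild type (SD, n = 4). Rps27l (464 bases) and Snrpe (492 bases) are among the shortest 10% of tested genes, which had a median log2 fold change of -0.42. Ccl6 is longer, at 1436 bases. For Anxa2 they were the actin-binding genes Lsp1 (0.0437) and Tagln2 (0.0471), followed by Anxa5 (0.056). The likeness is a description of 9 libraries in 2 groups.

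Promoter letters are shown for 2 pairs of genes: Anxa1 and Anxa2, of which Anxa1 was lower in all cKO libraries and Anxa2 overlapped between the groups, and S100a4 and S100a6, which put the cKO libraries in the same order. Each is the 250 bases before the RefSeq start in GRCm38.p6. Capitals mark matches to TGANTCA, the GC box GGGCGG and the TATA box TATAAA, each searched on both strands. TGANTCA, with any base at N, is a loose form of the AP-1 motif. Anxa1 is at chr19:20390672-20390921 on the minus strand, Anxa2 at chr9:69453433-69453682 on the plus strand, S100a4 at chr3:90603520-90603769 on the plus strand, and S100a6 at chr3:90612644-90612893 on the plus strand.
Anxa1: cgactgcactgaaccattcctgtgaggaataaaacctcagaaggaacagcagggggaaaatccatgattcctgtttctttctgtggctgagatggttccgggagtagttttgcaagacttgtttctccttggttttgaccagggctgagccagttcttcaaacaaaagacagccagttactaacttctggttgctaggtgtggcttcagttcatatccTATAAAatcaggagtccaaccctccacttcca
Anxa2: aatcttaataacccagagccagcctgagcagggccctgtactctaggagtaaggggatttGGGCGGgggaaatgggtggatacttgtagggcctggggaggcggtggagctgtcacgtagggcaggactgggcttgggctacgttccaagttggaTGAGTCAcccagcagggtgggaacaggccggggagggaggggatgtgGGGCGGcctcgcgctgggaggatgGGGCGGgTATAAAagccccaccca
S100a4: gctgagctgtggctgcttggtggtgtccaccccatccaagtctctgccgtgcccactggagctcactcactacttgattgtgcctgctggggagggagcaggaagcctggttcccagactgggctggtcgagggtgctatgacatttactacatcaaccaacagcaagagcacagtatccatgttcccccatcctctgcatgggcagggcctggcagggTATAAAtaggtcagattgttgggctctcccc
S100a6: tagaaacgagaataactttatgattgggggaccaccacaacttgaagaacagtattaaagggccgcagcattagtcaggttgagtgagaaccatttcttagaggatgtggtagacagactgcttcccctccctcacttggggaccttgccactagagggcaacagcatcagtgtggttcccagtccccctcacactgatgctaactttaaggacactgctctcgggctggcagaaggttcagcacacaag

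The windows differed in their letters. Anxa2 held an AP-1 match at position -95 from the annotated start, a TATA match at -17, 3 GC boxes and 9 CpG dinucleotides, beside a median of 6 over 32851 RefSeq promoters. Anxa1 held a TATA match at -32 and 2 CpG, and S100a4 a TATA match at -31 and 2 CpG. S100a6, with 3 CpG, held none of the 3 motifs. Of all promoters, 6.75% held the loose AP-1 letters, 32.7% the GC box and 12.4% the TATA box. S100a11, not printed, held 2 AP-1 matches and 3 GC boxes. A match of letters is a description and not evidence of binding. Of the 10 genes, 8 had a promoter entry, and S100a10 and Anxa3 are named only.

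The rest of both families was listed separately and tested. This list and those of partners, calcium sensors and membrane repair genes below were also drawn up with earlier results of these data known. Of 19 other S100 and annexin genes, 7 passed the count filter, and of these 1 was higher and 2 were lower at an adjusted p under 0.05, where 19.9% of all tested genes were called in either direction. The 3 calls of 7 are too few to set against that share. S100a13, a small sensor involved in the release of growth factors without a signal peptide, had 49.8, 52.9, 62.1, 58.8 and 51 CPM in cKO, against 88.4, 69.8, 98.9 and 95.3 CPM in wild type. It fell by 0.68 on the log2 scale (SE 0.11, adjusted p 0.000851), and the groups did not overlap. With the correction for length, under which 16.1% of all tested genes were called, its log2 fold change was -0.29 (adjusted p 0.0188). It shares 98 bases with S100a1, as said above.

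Anxa6, a large annexin with a doubled core that acts on endosomes and cholesterol, rose. It had 122, 109, 89.9, 126 and 97.3 CPM in cKO libraries, against 74.7, 65.8, 65.2 and 71.7 CPM in wild type libraries. The lowest cKO value was above the highest wild type value, and the log2 fold change was 0.65 (SE 0.11, adjusted p 0.000916). It was 0.60 (adjusted p 0.0014) with the correction for length. Anxa7, an annexin of membrane fusion, had 123, 123, 126, 128 and 112 CPM in cKO, against 138, 134, 176 and 154 CPM in wild type. It fell by 0.30 (SE 0.09, adjusted p 0.0321), a call that 8 of 19 alternatives did not make. Its adjusted p was 0.065 without cKO library 1, 0.0679 without cKO library 2, 0.0864 without cKO library 5, 0.0976 without wild type library 3, and 0.0825 without wild type library 4.

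The other 4 tested genes did not pass. S100a8, a subunit of the neutrophil protein calprotectin, had 25.1, 28.6, 101, 27.1 and 17 CPM in cKO, against 20.2, 16, 23 and 26.9 CPM in wild type. Its log2 fold change was 0.89 (SE 0.54, adjusted p 0.308), and 0.19 (adjusted p 0.542) without cKO library 3, which held by far the highest value. S100a9, its partner subunit, was between 2.28 and 5.45 CPM in cKO and between 1.09 and 3.89 CPM in wild type (log2 fold change 0.72, adjusted p 0.319). The 12 neutrophil markers, S100a8 and S100a9 among them, summed to between 64.1 and 197 CPM in cKO, highest in library 3, and to between 49.3 and 57.5 CPM in wild type. Ly6g, Camp, Elane and Mpo were at no more than 1 CPM in any library, and Elane had 0 counts in all 9. Of the 7 neutrophil markers tested, Csf3r, the receptor of a granulocyte growth factor, rose (log2 fold change 1.25, adjusted p 0.00446), and the part of neutrophils in the S100a8 value was not tested. Anxa11, an RNA granule annexin, was between 118 and 153 CPM in cKO and between 127 and 147 CPM in wild type (log2 fold change -0.09, adjusted p 0.54). Anxa9, between 1.71 and 3.15 CPM in cKO and between 0.159 and 4.06 CPM in wild type, had a log2 fold change of 0.32 (adjusted p 0.772), and -0.04 without wild type library 3, and it overlaps the genes Mindy1 and Cers2.

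The remaining 12 listed genes were under the filter: S100a3, S100a5, S100a7a, S100a7l2, S100a14, S100a16, S100b, S100g, S100z, Anxa8, Anxa10 and Anxa13. S100a7a, S100a7l2, S100z, Anxa10 and Anxa13 had 0 counts in all 9 libraries, which allows a level of up to 0.0658 CPM in the deepest and 0.217 CPM in the shallowest, for counting error only. S100a14 had 7, 5, 1, 4 and 8 counts in cKO libraries and 0 counts in all wild type libraries. These counts are too few for a fold change.

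**Figure D4:**
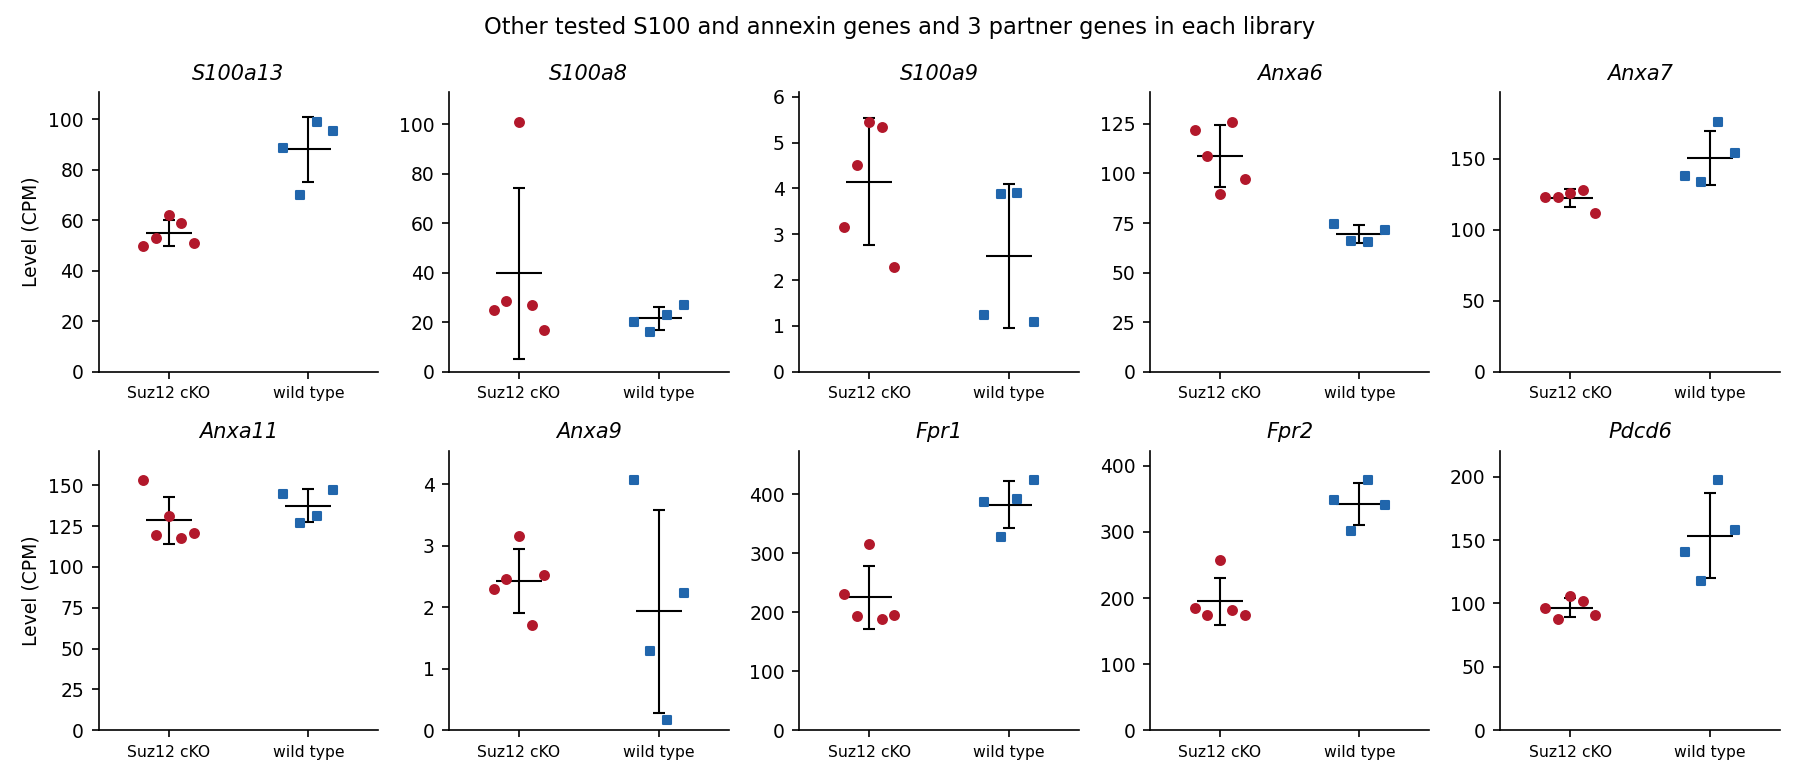
Level in CPM (y axis, from 0) of the 7 other tested S100 and annexin genes and of Fpr1, Fpr2 and Pdcd6 in Suz12 cKO libraries (circles, n = 5) and wild type libraries (squares, n = 4), with means and SD. The groups are apart for S100a13, Anxa6, Anxa7, Fpr1, Fpr2 and Pdcd6, and S100a8 has a single high cKO library at 101 CPM.

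The formyl peptide receptor genes through which Anxa1 acts both fell. Fpr1, a formyl peptide receptor of phagocytes, had 231, 193, 316, 189 and 195 CPM in cKO, against 386, 327, 392 and 423 CPM in wild type. It fell by 0.76 on the log2 scale (SE 0.14, adjusted p 0.00182). Fpr2, a receptor that responds to Anxa1 and to many other peptides, had 185, 174, 258, 182 and 175 CPM in cKO, against 348, 301, 378 and 341 CPM in wild type. It fell by 0.81 (SE 0.12, adjusted p 0.000352). Neither gene's groups overlapped, and both were highest among the cKO libraries in library 3.

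Among 20 tested partners and receptors of 25 listed, 1 rose and 6 fell, with a median log2 fold change of -0.15 beside 0.04 over all tested genes, of which 19.9% were called in either direction. With the correction for length, 1 rose and 9 fell, where 16.1% of all tested genes were called. Pdcd6, an EF-hand protein that binds Anxa7 and Anxa11, had 96.6, 88, 106, 102 and 91.2 CPM in cKO and 140.5, 118, 197 and 158 CPM in wild type, and fell by 0.66 (adjusted p 0.00212). Sri, which encodes the calcium sensor sorcin, a partner of Anxa7, fell by 0.41 (adjusted p 0.00645). Ahnak2, related to the scaffold that the S100a10 and Anxa2 complex binds, fell by 0.69 (adjusted p 0.00779). Ahnak, that scaffold itself, did not pass (log2 fold change -0.14, SE 0.15, adjusted p 0.548), and its groups overlapped. Plgrkt, a plasminogen receptor, fell by 0.40 (adjusted p 0.00485), but had -0.08 (adjusted p 0.511) with the correction for length, and it overlaps Cd274 by 5186 bases. Plaur, the urokinase receptor, rose by 0.42 (adjusted p 0.0103), at 493, 490.3, 671, 473 and 492 CPM in cKO and 402, 411, 380.1 and 374 CPM in wild type.

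Other calcium sensors moved in both directions. Of 23 tested, 3 rose and 5 fell, with a median of -0.09, beside 0.04 and a called share of 19.9% over all tested genes. Gsn, the actin-severing protein gelsolin, rose by 0.49 (adjusted p 0.00269), Efhd2, an actin-binding EF-hand protein, by 0.27 (adjusted p 0.015) and Calu, the secretory pathway protein calumenin, by 0.32 (adjusted p 0.0273). Capg, the actin-capping relative of gelsolin, fell by 0.38 (adjusted p 0.00224), Calm2, a calmodulin gene, by 0.34 (adjusted p 0.0248) and Cib1, which binds calcium and integrin tails, by 0.42 (adjusted p 0.0285), beside Pdcd6 and Sri. Calu, Calm2 and Cib1 did not pass with the correction for length, at adjusted p 0.0938, 0.224 and 0.539. These 3 calls were also lost when any 1 of several libraries was left out. Leaving out 1 library gave an adjusted p of up to 0.0848 for Calu (without any 1 of cKO libraries 2, 4 or 5 or wild type libraries 2 or 4). It gave up to 0.105 for Calm2 (cKO libraries 2 or 5, wild type libraries 1 or 4) and up to 0.083 for Cib1 (cKO libraries 1, 2 or 5, wild type libraries 1 or 3). Of 15 tested membrane repair genes out of 19 listed, with a median of 0.18, 2 were called, beside the 19.9% of all tested genes. Ehd1, an ATPase of endosome recycling, rose by 0.56 (adjusted p 0.000323), and Cav1, the coat protein of caveolae, fell by 1.03 (adjusted p 0.000214).

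The S100 genes of mouse chromosome 3 form a cluster. Between the start of S100a1 and the end of S100a10, 90511034 to 93564645 or 3.05 Mb, the table held 70 genes, of which 15 were S100 genes. The S100 genes from S100a1 to S100a7l2 all began within 0.577 Mb of the start of S100a1, and S100a11 and S100a10 lay apart from them, at 3.01 and 3.04 Mb from the start of S100a1.  S100a10, at -1.28, and S100a11, at -0.08, are neighbours at its far end. Of the 55 other genes in between, 1 passed the count filter. It was Tchh, the gene of the hair follicle protein trichohyalin, which rose by 1.30 (SE 0.22, adjusted p 0.00114), at 15.9, 18.9, 20.2, 12.9 and 17.7 CPM in cKO and 4.97, 10.1, 5.72 and 6.9 CPM in wild type.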

How the data were processed

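Whole-number counts per gene of 9 libraries were deposited by the authors, with Entrez identifiers and gene lengths. They were made with featureCounts on mm10, per the submitters' processing notes, while aligner, annotation release and strand setting were not given in the sources used here. Each of the 9 single-library tables equalled its column of the joint table, which was used. A RefSeq table of GRCm38.p6, the assembly behind mm10, named 25275 of 27179 identifiers and gave coordinates and promoter sequences.

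Counts were fitted in R 4.3.3 with edgeR 4.0.16 (TMM scaling, filterByExpr, robust quasi-likelihood test) over all 9 libraries with no covariate, and p-values were Benjamini-Hochberg adjusted over 12840 genes at a threshold of 0.05. Levels are CPM of the TMM-scaled library. The fit was tested on simulated data. The length correction was a loess curve (span 0.5), centred in each library. Alternatives were DESeq2 1.42.0, limma-voom (limma 3.58.1), RLE or library size scaling, no filter, a filter of 50 counts in 4 libraries, equal depth, length windows of 10% and 40%, a prior count of 0.5 for likeness, the length correction, a replicate block, and leaving out each library.

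The 10 genes and all lists were chosen with earlier results of these data known. The named genes are the 10, tested family members, up to 6 called genes per list and direction, called genes inside the S100 cluster, the 3 most alike for S100a10 and Anxa2, and Suz12. Ccr2, Itgax, S100a11-ps, Ahnak, Chil3, Siglecf and the other cell type markers were named after their values were seen. P-values set the difference between the groups against the spread between these libraries within a group.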

Additional observations from a re-analysis of the deposited data

Results flagged for a closer look

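A library far from the others of its group was found for 4 genes among 78 gene and group combinations examined by Dixon's test, which chance flags in about 1 of 20. S100a4 had 22.1 CPM in wild type library 3, where the other wild type libraries had between 6.3 and 7.36 CPM. Anxa3 had 37.2 CPM in cKO library 3, where the other cKO libraries had between 61.2 and 69 CPM. Plaur had 671 CPM in cKO library 3, where the other cKO libraries had between 473 and 493 CPM. Fpr2 had 258 CPM in cKO library 3, where the other cKO libraries had between 174 and 185 CPM. Without cKO library 3, the log2 fold change was 0.04 for Anxa3, 0.32 for Plaur and -0.93 for Fpr2. Without wild type library 3 it was 0.07 for S100a4.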

How the results depend on the processing

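The count of higher genes was 1960 with library size only, 749 with the replicate block, and 465 with the length correction and the block together. The count of lower genes was 785 with both together, and other S100 and annexin genes called then numbered 1. The median of genes of similar length was -0.57 for S100a10 at a mean log2 CPM of at least 4. Without any 1 library, between 772 and 1434 genes were higher and between 1074 and 1521 lower, other family genes called numbered 2 to 3, list genes called 12 to 19, genes around the cluster called stayed at 1, and the median of the 10 genes was between -0.19 and -0.08. With library size only that median was 0.02. S100a4, S100a6, S100a11, Anxa2, Anxa3, Anxa4 and Anxa5 each changed sign in at least 1 of the 19 alternatives. S100a10, S100a1, Anxa1 and Suz12 kept their direction in all 19 alternatives, and Anxa6 and Suz12 their call.

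Same-numbered libraries of the groups deviated together in 1 of 4 pairs at a correlation over 0.1 (range -0.0949 to 0.15), so the numbers were not taken as pairing. With the replicate block, S100a13 (adjusted p 0.00195) and Anxa6 (0.000927) were called, and Anxa7 (0.0864), Efhd2 (0.051) and Calu (0.0938) were not. Anxa7 was not called with library size only either (0.132), and S100a13 (0.0899) and Capg (0.0752) were lost with the length correction and the block together. Low counts limit S100a4 (36 in cKO library 3), S100a9 (26 in wild type library 4) and Anxa9 (2 in wild type library 3). The causes were not tested.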
